A study of Mus musculus with 15 samples.

Results

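The keratins of simple epithelia were followed in the RNA of the whole mouse stomach through 5 genes, Krt7, Krt8, Krt18, Krt19 and Krt20, taken by gene symbol from the 44788 symbols in the expression tables. All 5 were present as a single entry and all 5 reached, at some time point, the level of 1 FPKM (fragments counted per unit of transcript length and of sequencing depth) that was required for testing and that left 16902 symbols. RNA came from C57BL/6 mice at 15 time points, with 1 transcriptome per time point. The labels give no genotype, treatment or sex. The study's reporting summary, which does not name the assay, describes samples that pool the stomachs of several embryos up to E17.5. After E18.5 they hold a single stomach, and E18.5 itself is not placed. The change from pools to single stomachs thus falls close to birth. Young of up to W2 were not separated by sex and older mice were all male, so sex and pooling cannot be told apart from age in these periods. The fetal group held 7 time points (embryonic days E12.5 to E18.5), the suckling group 5 (postnatal days D1, D3 and D5 and weeks W1 and W2) and the weaned group 3 (W3, W6 and W8, from the usual age of weaning on). No time point had a replicate, so time points served as replicates of a period and the spread within a period includes change with age.

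Keratins are the intermediate filament proteins of epithelial cells. A filament is built from pairs of a type I (acidic) and a type II (basic) keratin, and the filaments are anchored to desmosomes, where they carry mechanical load across the cell sheet. Single-layered epithelia use Krt8 and Krt18 as their basic pair, to which Krt19, Krt7 or Krt20 are added according to the organ. The mouse stomach also has a forestomach lined by a stratified squamous epithelium with its own keratins, next to the glandular stomach with its columnar epithelium.

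The type II genes Krt8 and Krt7 lie in the keratin cluster on chromosome 15 (GRCm38), Krt8 at positions 101996711 to 102004342 on the minus strand and Krt7 at positions 101410974 to 101427806 on the plus strand. Krt18 is the type I gene that lies outside the type I cluster, at positions 102022706 to 102032026 on the plus strand of chromosome 15, 18.4 kb from Krt8. The other type I genes are on the minus strand of chromosome 11, Krt19 at positions 100140810 to 100145919 and Krt20 at positions 99428403 to 99438153. These intervals are those of the whole genes in the expression tables, with the start counted from 1. The tables also hold an entry for the pseudogene Krt8-ps, whose FPKM was 0.201% to 0.325% of that of Krt8 over the 15 time points.

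The sequences around the transcription starts of 4 of these genes are shown because Krt8 and Krt18 are neighbours that form a filament pair, and because Krt20 had the lowest fetal level. Each sequence runs 5′ to 3′ on the strand of the gene, from 75 bases before the start to 25 bases from it on, and is taken from RefSeq (GRCm38.p6). Capitals mark the letters TATAA, searched on both strands; in Krt8 the matches on the 2 strands overlap.
Krt8, chr15:102004318-102004417, minus strand: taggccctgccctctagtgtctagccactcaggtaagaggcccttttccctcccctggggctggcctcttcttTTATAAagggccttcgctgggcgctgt
Krt18, chr15:102028141-102028240, plus strand: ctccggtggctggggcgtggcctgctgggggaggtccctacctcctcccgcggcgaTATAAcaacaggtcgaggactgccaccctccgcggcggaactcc
Krt20, chr11:99438129-99438228, minus strand: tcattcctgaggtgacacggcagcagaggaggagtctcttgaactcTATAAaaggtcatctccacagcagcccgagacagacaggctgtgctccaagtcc
Krt7, chr15:101412328-101412427, plus strand: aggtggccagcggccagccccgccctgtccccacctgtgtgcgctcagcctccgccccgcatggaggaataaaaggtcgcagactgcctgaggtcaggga
The letters were found in the windows of Krt8, Krt18 and Krt20 and in 9.90% of the 32851 windows of the same length in the table. On the strand of the gene they began 1 base before the start in Krt8, 19 bases before it in Krt18 and 29 bases before it in Krt20. In the window of Krt7 the letters TATAA do not occur. The RefSeq starts of Krt18 and Krt7 lie inside the gene intervals of the expression tables, whereas those of Krt8 and Krt20 are at their edge.

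Several transcriptomes stood apart in genes of other tissues. Albumin (Alb) reached 460.5 FPKM at D1, against at most 65.4 at the other time points, and the pancreatic protease gene Ctrb1 reached 84.5 FPKM at D3 and 39.3 at E15.5, against at most 12.6 at the other time points. At W8 the squamous keratins were nearly absent (Krt13 5.96 FPKM, Krt4 2.74 FPKM and Krt5 1.26 FPKM), after 273, 168 and 27.3 FPKM at W6. The intestinal factors Cdx1 and Cdx2 stayed at or below 0.401 and 1.60 FPKM, the epithelial gene Epcam stood between 75.5 and 152 FPKM, and the stomach mesenchyme factor Barx1 between 37.3 and 472 FPKM. Lipf, a chief cell gene, was listed at 0 at every time point. The 10 highest genes of a transcriptome took 11.2% (E14.5) to 53.2% (W6) of its summed FPKM. Read depths are not given. The counting bounds quoted below are the confidence limits deposited with the values, and they do not cover the spread between samples. Their half-width was 4.37% for Krt18 at W6 (631 FPKM) and 2.64% for Krt20 at W3 (183 FPKM). The width thus did not follow the level alone, and what it covers beyond counting is not stated.

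Krt8 encodes the main type II keratin of simple epithelia. Its FPKM in the fetal stomach was lowest at E12.5 (151), had a median of 423 and was highest at E18.5 (995). In the suckling stomach it was 831 at D1, 989.8 at D3, 734 at D5, 1130.0 at W1 and 1445 at W2, and in the weaned stomach 1975 at W3, 2034 at W6 and 1478 at W8. Each fetal time point was higher than the one before it, and the fetal and suckling ranges overlapped, since E17.5 and E18.5 lay above D1 and D5. All 3 weaned values were above all suckling values, W8 by little over W2. From E12.5 to W6 the level was 13.45-fold higher (12.98 to 13.95 from the counting bounds), and its rank among all genes went from 597 to 49.

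Krt7 encodes the other type II keratin of the group, found in simple and ductal epithelia and in mesothelium. In the fetal stomach it was lowest at E12.5 (52.9 FPKM), with a median of 132 and a maximum of 281 at E16.5. It was 168 FPKM at D1, 104 at D3, 83.3 at D5, 98.2 at W1 and 93.3 at W2, and then 121 at W3, 99.3 at W6 and 49.6 at W8. Krt7 thus had its highest values before birth, at E16.5 and E17.5, and the 3 periods overlapped. Its lowest values, at W8 and E12.5, had overlapping counting bounds, and with median-ratio scaling E12.5 was the lowest. Between E17.5 (268 FPKM) and E18.5 (132 FPKM) the level was 0.494 of its former value (0.447 to 0.546 from the counting bounds). Over the same step Krt8 was 1.13-fold its former value (1.10 to 1.15), so the type II genes moved apart over this single step by more than these bounds. The next step, from E18.5 to D1, went the other way. Krt7 was then 1.27-fold its former value (1.14 to 1.40) and Krt8 0.836-fold (0.815 to 0.856).

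Krt18 is the type I partner of Krt8. Its fetal FPKM was lowest at E12.5 (119), with a median of 255 and a maximum of 412 at E18.5. It was 448 at D1, 495 at D3, 400.1 at D5, 603 at W1 and 628 at W2, and 587 at W3, 631 at W6 and 519 at W8. Every suckling value except that of D5 was above all fetal values, and the weaned values lay within the suckling range apart from W6. The highest level (W6) was 5.30-fold the lowest (E12.5), with 4.81 to 5.86 from the counting bounds, against 5.67-fold for Krt7; with median-ratio scaling these ranges were 11.8-fold and 5.60-fold.

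Krt19 encodes the smallest type I keratin, which lacks most of the tail domain and marks ductal and glandular epithelia. Its fetal FPKM was lowest at E12.5 (112), with a median of 544 and a maximum of 985 at E18.5. It was 793 at D1, 947 at D3, 625 at D5, 1108 at W1 and 1528 at W2, and 2309 at W3, 2811 at W6 and 1723 at W8. The weaned values were all above the suckling values, while fetal and suckling values overlapped broadly. From E12.5 to W6 the level was 25.1-fold higher (24.0 to 26.3 from the counting bounds). Krt8, Krt18 and Krt19 had the same numbers of upward steps: each was higher than at the preceding time point at all 6 fetal steps and at 11 of 14 steps in all. The steps were not all the same, since Krt18 was higher at D1 than at E18.5 and lower at W3 than at W2. Krt8 and Krt19 moved the other way there, and both moves of Krt18 were within its counting bounds. Other upward steps of Krt18 were also within them, such as that from E17.5 to E18.5 (1.05-fold, 0.958 to 1.15).

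Krt20 encodes a type I keratin known from intestinal epithelium, gastric surface mucous cells and urothelium. Its fetal FPKM was lowest at E14.5 (1.65, with counting bounds of 1.18 to 2.12), had a median of 2.84 and was highest at E18.5 (36.7). It was 30.2 at D1, 91.9 at D3, 65.3 at D5, 96.8 at W1 and 129 at W2, and 183 at W3, 124 at W6 and 64.1 at W8. The first 4 fetal time points were all below 3 FPKM, E16.5 stood at 9.50 FPKM, and the fetal and suckling groups overlapped only through E18.5 and D1. The level at W3 was 111-fold that at E14.5 (84.1 to 159 from the counting bounds), the widest range of the 5 genes. In the weaned stomach the values spread from the highest of all (W3) to one just below that of D5 (W8).

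**Figure D1:**
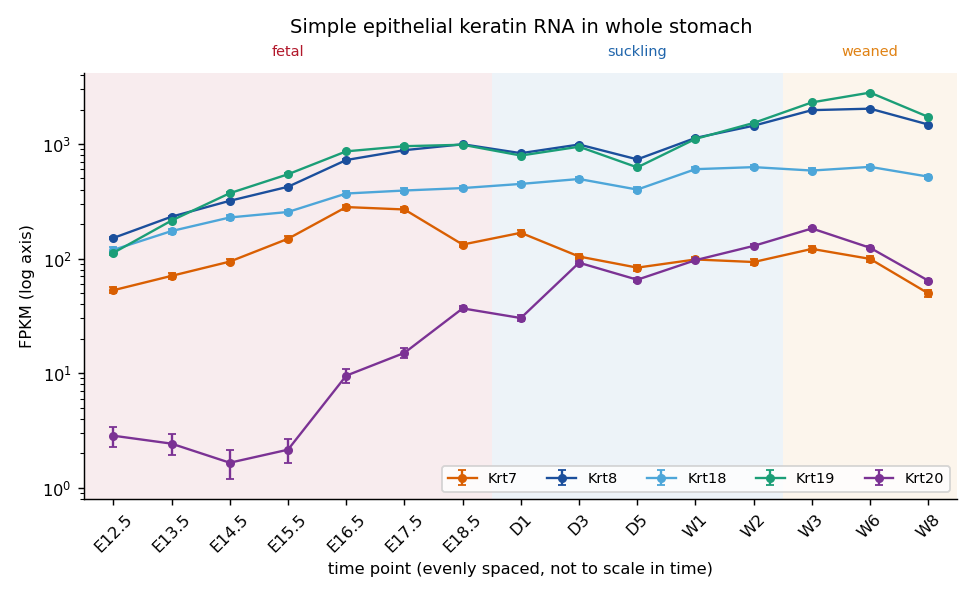
FPKM of Krt7, Krt8, Krt18, Krt19 and Krt20 (log axis) at the 15 time points, in order of age and evenly spaced, with the deposited counting bounds as bars; shading marks the fetal, suckling and weaned periods. Krt8, Krt18 and Krt19 have their lowest value at E12.5 and their highest at W6, Krt7 peaks at E16.5 (281 FPKM), and Krt20 stays below 3 FPKM until E15.5 and reaches 183 FPKM at W3.

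FPKM is corrected for transcript length, so the levels of the 5 genes can be ordered within a transcriptome. Krt8 and Krt19 were the highest 2 at every time point except E12.5, where Krt18 (119 FPKM) stood between Krt8 (151) and Krt19 (112). The counting bounds of Krt18 and Krt19 overlapped there (112 to 125 for Krt18 and 108 to 117 for Krt19). Krt19 was above Krt8 at 8 of the 15 time points (E14.5 to E17.5 and W2 to W8), each time with bounds that did not overlap, and below it with bounds that did not overlap at 5. Krt18 came next at every later time point. Krt7 was above Krt20 from E12.5 to W1, and Krt20 was above Krt7 from W2 on, both below Krt18 throughout. At W1 these neighbours were close, with 98.2 FPKM for Krt7 (92.8 to 104) and 96.8 FPKM for Krt20 (93.5 to 100.1), and their bounds overlapped.

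The differences between periods were tested for all 16902 genes with limma on the scale log2(FPKM + 1), on which changes of weakly expressed genes appear smaller than they are. Across the 3 periods, Krt8, Krt18, Krt19 and Krt20 passed an adjusted p of 0.01 in limma's F test (adjusted p = 0.00298, 0.00345, 0.00562 and 0.000101) and Krt7 did not (adjusted p = 0.482). That is 4 of 5 genes where 67.9% of all tested genes passed, so the count stands near that of genes in general. In whole organs, a change in the number of cells of a type and a change in RNA per cell cannot be told apart.

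From the fetal to the suckling stomach, Krt18 and Krt20 rose and Krt8, Krt19 and Krt7 did not pass the threshold. Krt20 went from 10.04 ± 12.8 FPKM (SD, n = 7) to 82.7 ± 37.0 (SD, n = 5), a log2 difference of 3.47 (SE 0.62, limma adjusted p = 0.000593). Krt18 went from 279 ± 115 to 515 ± 98.3 FPKM, a log2 difference of 0.98 (SE 0.27, limma adjusted p = 0.00715). The count of 2 of 5 compares with 10.8% of all tested genes called higher in the suckling stomach and 30.6% called lower. For Krt8 (533 ± 333 to 1026 ± 279 FPKM) the log2 difference was 1.19 (SE 0.41, limma adjusted p = 0.0225), and for Krt19 (578 ± 361 to 1000.2 ± 345 FPKM) it was 1.07 (SE 0.48, limma adjusted p = 0.0690). Krt7 (149.8 ± 91.7 to 109 ± 33.6 FPKM) had a log2 difference of -0.26 (SE 0.39, limma adjusted p = 0.585), which became 0.02 with median-ratio scaling and 0.21 with E17.5 and E18.5 counted as suckling.

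In exact two-sided permutation tests over the 792 splits of these time points, the p was 0.00505 for Krt20, 0.0101 for Krt18, 0.0341 for Krt8, 0.0884 for Krt19 and 0.558 for Krt7. Here and below, as in limma, time points count as exchangeable although levels also changed with age within a period. A small p thus cannot set a change at birth or weaning apart from a trend with age. From E18.5 to D1 Krt20 was 0.824-fold (0.728 to 0.931 from the counting bounds) and Krt18 1.09-fold (0.992 to 1.19). None of the 5 genes separated the fetal from the suckling values without overlap, as 6.63% of all tested genes did towards higher suckling values. The call of Krt18 was lost in 7 of the 15 fits that left out 1 time point (without E13.5, E14.5, E15.5, D1, D3, W1 or W2; adjusted p from 0.00281 to 0.0213 over the 15). Krt8 passed the threshold when E18.5 was left out (log2 difference 1.39, adjusted p = 0.00671) or counted as suckling (1.39, adjusted p = 0.00367).

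From the suckling to the weaned stomach, limma called 0 of the 5 genes, where 2.57% of all tested genes were called higher and 28.9% lower. Unadjusted p was below 0.05 for 0 of the 5 in limma and for 2 of the 5 in the exact permutation test. Krt19 went from 1000.2 ± 345 (SD, n = 5) to 2281 ± 545 FPKM (SD, n = 3), a log2 difference of 1.23 (SE 0.60, limma adjusted p = 0.0996). Krt8 went from 1026 ± 279 to 1829 ± 305 FPKM, a log2 difference of 0.86 (SE 0.51, limma adjusted p = 0.168). Krt8 and Krt19 were the genes of the 5 whose weaned values were all above the suckling values, a pattern shown by 4.90% of all tested genes. The exact permutation p over the 56 splits was 0.0179 for Krt19, the smallest these numbers allow, and 0.0357 for Krt8.

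The other 3 genes overlapped between the suckling and the weaned stomach. The log2 difference of Krt20 was 0.60 (SE 0.78, limma adjusted p = 0.528), that of Krt18 was 0.19 (SE 0.34, adjusted p = 0.660) and that of Krt7 was -0.33 (SE 0.49, adjusted p = 0.589). Exact permutation p was 0.393, 0.321 and 0.464 for these genes. The sign for Krt7 turned without W8 (0.05) and with median-ratio scaling (0.26), and that for Krt18 turned when the FPKM of each transcriptome were set to a fixed sum (-0.19).

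**Figure D2:**
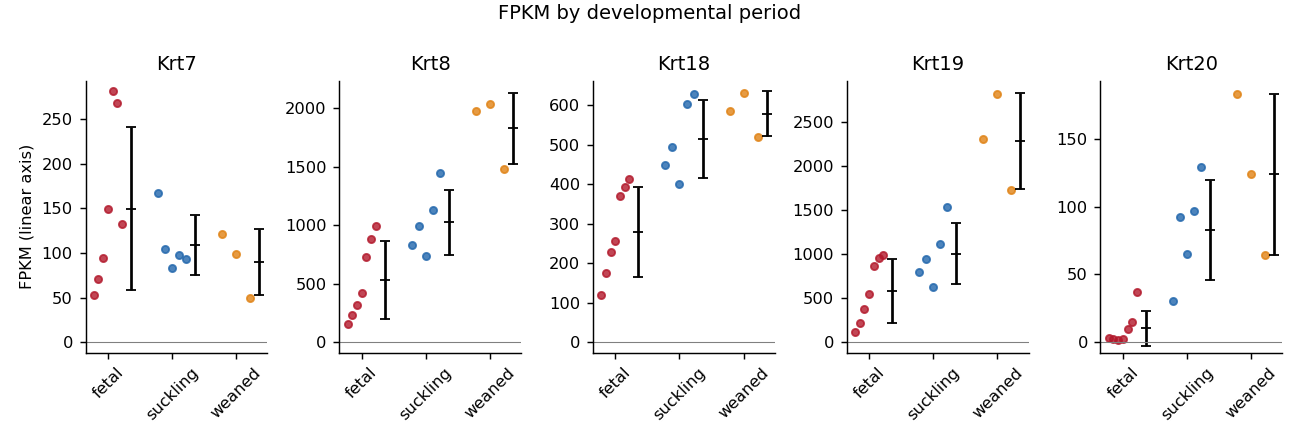
FPKM (linear axes, each gene with its own scale) of the 5 genes in the fetal (7 time points), suckling (5) and weaned (3) periods; points are time points in order of age, the black bar gives mean ± SD over the time points of a period. The weaned values of Krt8 and Krt19 are all above their suckling values, the fetal and suckling values of all 5 genes overlap, and the SD bar of fetal Krt20 (10.04 ± 12.8) reaches below 0 because a single late value lies far above the others.

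The deposited scale bears on these differences, because the median log2 difference of all tested genes was -0.22 from fetal to suckling and -0.42 from suckling to weaned. With median-ratio scaling the latter became -0.02, and the log2 differences of the members moved up, from fetal to suckling to 1.47 for Krt8, 1.26 for Krt18, 1.35 for Krt19 and 3.68 for Krt20. From suckling to weaned they were 1.45 for Krt8, 0.78 for Krt18, 1.82 for Krt19 and 1.19 for Krt20 on that scale. Of the genes called in the first comparison 26.0% were called higher with the deposited scale and 53.1% with median-ratio scaling, and in the second 8.19% and 61.8%. Among all tested genes on the deposited scale, the fetal to suckling difference stood at percentile 99.4 for Krt20, 94.5 for Krt8, 93.6 for Krt19, 92.7 for Krt18 and 47.1 for Krt7.

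Ratios of FPKM within a transcriptome do not depend on its scaling, and Krt8 was used as the reference because it is the shared type II partner. The tests used differences of log2(FPKM + 1), which do depend on it where the FPKM is low, as for Krt20 in the early fetal stomach. Krt7 per Krt8 was between 0.133 (E18.5) and 0.388 (E16.5) in the fetal stomach, with a median of 0.304. It was 0.202 at D1, 0.105 at D3, 0.113 at D5, 0.0869 at W1 and 0.0645 at W2, and 0.0615 at W3, 0.0488 at W6 and 0.0336 at W8. The suckling values were below all fetal values except for D1, which lay above E18.5, and the weaned values were below all suckling values, though W3 by little, as were those of 80.0% of all genes relative to Krt8. Krt7 relative to Krt8 fell from fetal to suckling, by 1.45 on the log2 scale (SE 0.42, limma adjusted p = 0.00790), where 35.6% of all genes were called lower against Krt8. Across the 3 periods, Krt7 and Krt20 passed the F test relative to Krt8 (adjusted p = 0.000114 and 0.000142) and Krt18 and Krt19 did not (0.175 and 0.746), with 84.3% of all genes past it. The call of Krt7 from fetal to suckling was lost in 11 of the 15 fits without 1 time point (adjusted p up to 0.0328).

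Krt20 per Krt8 was between 0.00507 (E15.5) and 0.0369 (E18.5) in the fetal stomach, with a median of 0.0131. It was 0.0364 at D1, 0.0929 at D3, 0.0890 at D5, 0.0857 at W1 and 0.0893 at W2, and 0.0927 at W3, 0.0610 at W6 and 0.0433 at W8. From D3 to W3 the ratio stayed within 0.0857 to 0.0929, while D1 stood near E18.5, above the other fetal values. Relative to Krt8, Krt20 rose from fetal to suckling by a log2 difference of 2.28 (SE 0.46, limma adjusted p = 0.00334), where 1.01% of all genes were called higher against Krt8. The call was lost without W1 or without W2 (adjusted p up to 0.0205 over the fits without 1 time point). With a pseudocount of 0.1 the difference was 2.56 (limma adjusted p = 0.00480).

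The ratio of Krt18 to Krt8 varied between time points, but no limma test of Krt18 relative to Krt8 passed the threshold. Krt18 per Krt8 was 0.787 at E12.5, had a fetal median of 0.602 and was 0.414 at E18.5. It was 0.539 at D1, 0.545 at D5, 0.534 at W1 and 0.435 at W2, with D3 between W2 and W1, and 0.297 at W3, 0.310 at W6 and 0.351 at W8. The 3 weaned ratios were below every fetal and suckling ratio, the latter again a pattern shared by 80.0% of all genes. The limma test of Krt18 relative to Krt8 gave a log2 difference of -0.21 from fetal to suckling (adjusted p = 0.620) and of -0.67 (SE 0.48, adjusted p = 0.204) from suckling to weaned.

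Krt19 per Krt8 was 0.741 at E12.5, had a fetal median of 1.08 and reached 1.29 at E15.5. It was 0.954 at D1, 0.957 at D3, 0.851 at D5, 0.980 at W1 and 1.06 at W2, and 1.17 at W3, 1.38 at W6 and 1.17 at W8. Its weaned ratios were above all suckling ratios, as for 0.491% of all genes, but within the fetal range apart from W6. The log2 difference was -0.12 from fetal to suckling (limma adjusted p = 0.772) and 0.37 (SE 0.47, limma adjusted p = 0.471) from suckling to weaned. Of the 4 genes, 0 passed the threshold relative to Krt8 from suckling to weaned, with unadjusted p below 0.05 for 1 (Krt7, log2 difference -1.19, SE 0.53, limma adjusted p = 0.0824), where 0.0828% of all genes were called higher and 1.79% lower.

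**Figure D3:**
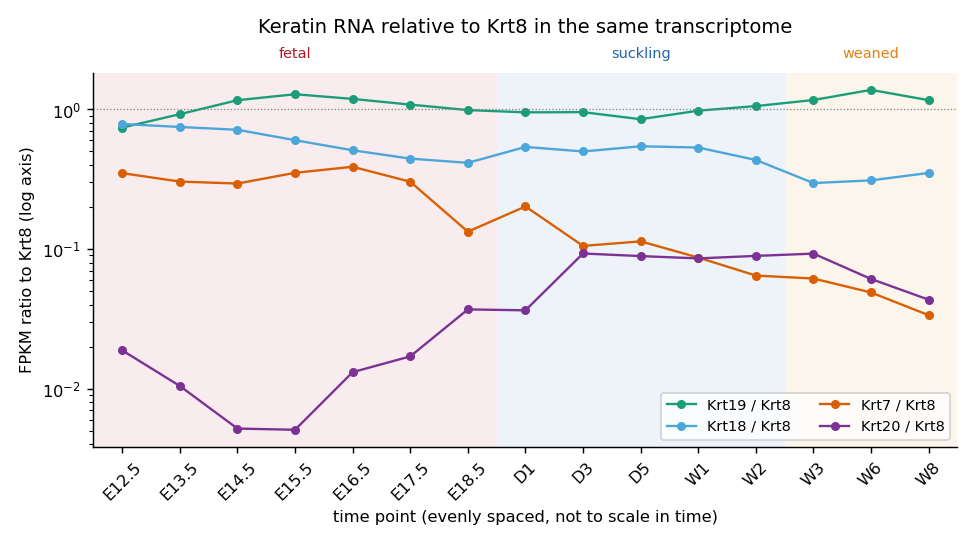
FPKM of Krt19, Krt18, Krt7 and Krt20 divided by the FPKM of Krt8 in the same transcriptome (log axis) at the 15 time points; the dotted line marks a ratio of 1. Krt19 stays between 0.741 and 1.38, Krt18 runs from 0.787 at E12.5 to 0.297 at W3, Krt7 from 0.388 at E16.5 to 0.0336 at W8, and Krt20 stays within 0.0857 to 0.0929 from D3 to W3.

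Because type I and type II chains pair with each other, the sums of both types were also compared. Krt7 and Krt8 together had 0.872 of the FPKM of Krt18, Krt19 and Krt20 at E12.5 and 0.598 at W6, with 0.784 ± 0.0666 (SD, n = 7) in the fetal, 0.720 ± 0.0477 (SD, n = 5) in the suckling and 0.647 ± 0.0436 (SD, n = 3) in the weaned stomach. The total of the 5 genes was 438 FPKM at E12.5, 2561 at E18.5, 1908 at D5 and 5700 at W6. Within this total, Krt8 kept a share of 30.8% to 38.8% at all 15 time points. The share of Krt7 was highest at E16.5 (12.52%) and lowest at W8 (1.29%). Among the type I genes, Krt18 made up 50.9% at E12.5 and 17.7% at W6, and Krt19 made up 47.9% and 78.8% at these time points.

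The simple keratins shared the organ with the keratins of the squamous forestomach. Of 51 keratin symbols in the files, 26 reached an FPKM of at least 1, and 21 of these were not among the 5 genes. The highest of them by mean FPKM were Krt13 (1518) and Krt4 (717), the pair of the suprabasal layers of non-cornified squamous epithelia, and Krt15 (354), a keratin of the basal layer. From fetal to suckling 4 of the 21 rose and 0 fell, where 10.8% of all tested genes were called higher and 30.6% lower. From suckling to weaned 0 rose and 3 fell, where 2.57% of all tested genes were called higher and 28.9% lower. A list of 12 squamous keratins summed to 58.9 FPKM at E12.5, 10209 at E17.5, 10190 at D1, 1019 at W6 and 21.0 at W8. The 5 simple keratins were therefore 88.1% of these 17 keratins at E12.5, 19.8% at E17.5, 18.2% at D1, 84.8% at W6 and 99.5% at W8. Both sums were lower at W8 than at W6, that of the simple keratins at 3834 FPKM, and the part of the W8 sample in this was not tested.

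**Figure D4:**
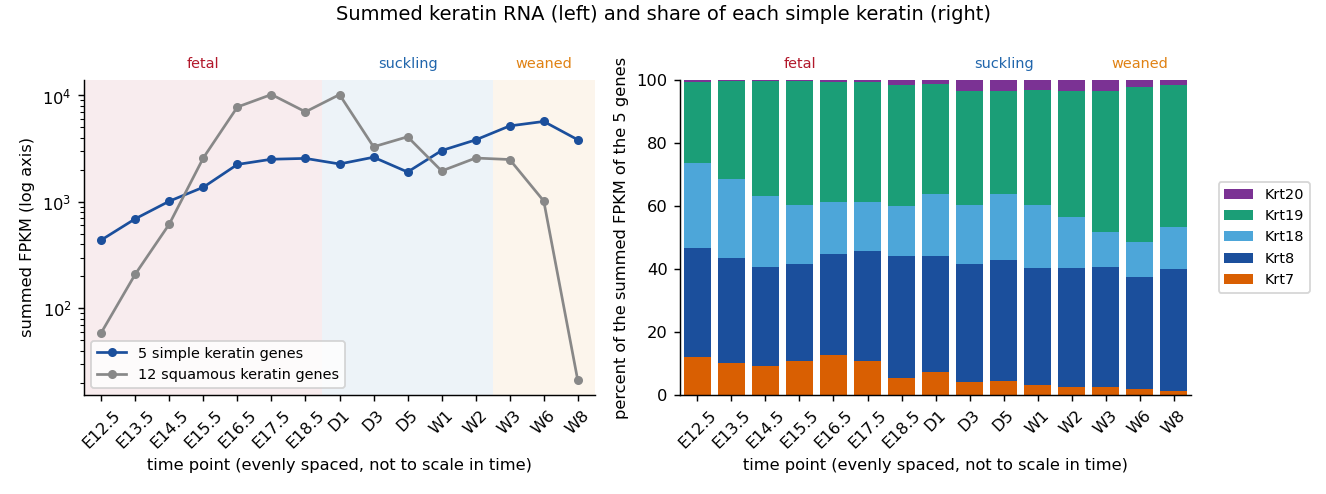
Left, summed FPKM (log axis) of the 5 simple keratin genes and of 12 squamous keratin genes at the 15 time points; right, the percent of the summed FPKM of the 5 genes held by each. The squamous sum is above the simple sum from E15.5 to D5 and stands at 21.0 FPKM at W8, while Krt8 keeps 30.8% to 38.8% of the simple sum, Krt7 has 1.29% at W8 and Krt19 has 49.3% at W6.

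The share of epithelium in the whole organ can change with age. The members were therefore also set against the mean log2(FPKM + 1) of 20 general epithelial genes, such as the adhesion genes Epcam and Cdh1. These genes are not limited to simple epithelia, so their mean does not set apart the simple from the squamous epithelium. They include Cldn3 and Cldn7, which were themselves called lower in the suckling stomach. This mean was 3.98 at E12.5, 5.44 at E16.5 and between 4.85 and 5.28 from birth on. Relative to it, Krt20 rose from fetal to suckling (log2 difference 3.25, limma adjusted p = 0.000416), and no other member passed the threshold, with 3.69% of all genes called higher and 2.60% lower. The adjusted p was 0.0133 for Krt18 (0.76), 0.0185 for Krt8 (0.97) and 0.0512 for Krt19 (0.85). For Krt7 the difference was -0.48 (limma adjusted p = 0.158). Krt18 was the member whose suckling values were all above its fetal values on this scale, with 3.53 at D1 the lowest suckling and 3.45 at E18.5 the highest fetal value, as for 3.13% of all genes.

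On the same scale, 0 of the 5 genes were called by limma from suckling to weaned, with unadjusted p below 0.05 for 2 of them and 0.550% of all genes called higher and 1.02% lower. Krt19 had a log2 difference of 1.39 (SE 0.39, limma adjusted p = 0.0453) and Krt8 of 1.02 (SE 0.34, limma adjusted p = 0.0863). Krt8 and Krt19 again had all weaned values above all suckling values, as did 8.35% of all genes. The differences were 0.76 for Krt20 (adjusted p = 0.538), 0.35 for Krt18 (adjusted p = 0.474) and -0.17 for Krt7 (adjusted p = 0.824), and the last turned to 0.21 without W8. Across the 3 periods, Krt8, Krt18, Krt19 and Krt20 passed the F test relative to the epithelial genes (adjusted p from 4.49e-05 to 0.00155), where 28.1% of all genes did.

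**Figure D5:**
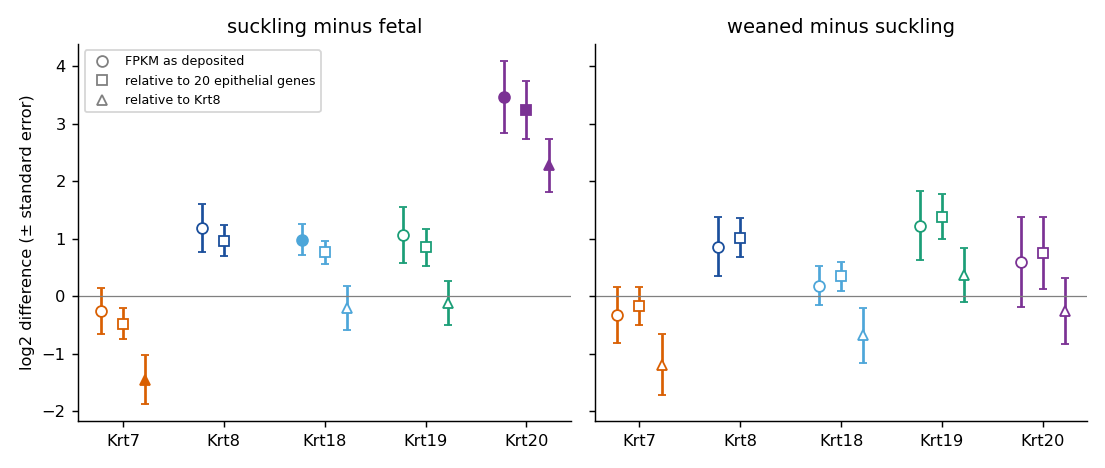
Log2 differences ± SE of the 5 genes, suckling minus fetal (left) and weaned minus suckling (right), with the deposited FPKM (circles), relative to 20 epithelial genes (squares) and relative to Krt8 (triangles, Krt8 itself left out); filled symbols passed an adjusted p of 0.01 in limma. On the left, Krt20 is filled on all 3 scales, Krt18 on the deposited scale only and Krt7 relative to Krt8 only, and on the right no symbol is filled.

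Genes of epithelial junctions and of the structures that hold keratin filaments were counted in the same fit. Of the 20 general epithelial genes 0 were higher and 2 lower in the suckling stomach, namely the tight junction genes Cldn3 (log2 difference -2.44) and Cldn7 (-1.75), with unadjusted p below 0.05 for 9 of the 20 and a list median of 0.45. Of 10 desmosome and plakin genes, which tie keratin filaments to the junctions, the desmosomal cadherin gene Dsg2 rose from fetal to suckling (0.81) and 9 were not called, with a median of 0.69. From suckling to weaned, 1 of the 20 epithelial genes (Cldn7, -2.12) fell, and 0 without W8. Of the 10 desmosome genes 0 were called in limma, with unadjusted p below 0.05 for 1. Median differences of these lists were -0.06 and -0.21, where that of all genes was -0.42. With median-ratio scaling, 3 epithelial genes were called higher and 2 lower and 4 desmosome genes higher from fetal to suckling, and the list medians from suckling to weaned became 0.48 and 0.36.

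Of the 12 squamous keratins, the cornification pair Krt1 (5.50) and Krt10 (4.67) rose from fetal to suckling, and Krt15 (-4.74) and Krt17 (-3.03) fell from suckling to weaned, with list medians of 1.71 and -2.77. Without W8, 0 of the 12 were called from suckling to weaned and the median was -1.22. Among 9 tested intermediate filament genes of other cell types, 3 rose and 2 fell from fetal to suckling and 4 fell from suckling to weaned (2 without W8). They included the muscle filament gene Des (2.25) and the neuronal gene Ina (-1.46) in the first comparison and the mesenchymal gene Vim (-1.78) in the second. Of 14 epithelial transcription factor genes, 3 rose and 1 fell from fetal to suckling, among them Klf4 (1.38), Ovol2 (0.94) and Gata6 (0.84), with Sox2 (-0.92) lower. From suckling to weaned Gata4 rose (0.75) and Sox2 (-1.60) and Klf5 (-1.27) fell. Without W8, 0 of the 14 rose and 1 fell in this comparison.

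Markers of the cell types of the glandular stomach were counted in the same comparisons. Of 10 genes of surface mucous cells 7 rose from fetal to suckling (median 3.23, Gkn2 5.72) and 3 from suckling to weaned (median 1.85, Muc5ac 6.00), or 1 without W8. Their summed FPKM was 262 to 6554 in the fetal, 10536 to 61999 in the suckling and 123580 to 195084 in the weaned stomach. Of 7 parietal cell genes 6 rose from fetal to suckling (median 2.31) and 0 were called in limma from suckling to weaned, with unadjusted p below 0.05 for 2. All 4 tested chief cell genes rose from fetal to suckling, and from suckling to weaned Pgc rose (5.66) and Pga5 fell (-5.84). Without W8, 1 chief cell gene rose and 0 fell in the latter comparison. The part of these cell types in the keratin differences was not tested.

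Genes of cells outside the gastric epithelium were counted in the same way. Mesothelial genes, 7 of them tested, summed to 55.0 to 93.2 FPKM in the fetal, 41.3 to 126 in the suckling and 19.2 to 37.0 in the weaned stomach. Of these, Gpm6a rose from fetal to suckling and Upk3b fell from suckling to weaned (-1.94). Of 9 pancreatic genes 2 rose in each comparison (Clps in both), of 4 intestinal genes 3 and then 1 (Fabp2 in both). Of 7 liver genes 2 and then 1 rose (Apoa1 in both), and 0 genes of these lists were called lower. The list medians were positive from fetal to suckling. From suckling to weaned they were -0.69 for the pancreatic, -0.33 for the intestinal and -0.06 for the liver genes. At W6 Clps stood at 128680 FPKM, beside 96.0 for Cela1, 2.41 for Ctrb1, 1.82 for Cela2a and 0.731 for Pnlip. Of 6 smooth muscle genes Smtn rose (0.74) and Acta2 then fell (-1.45). Without W8, 0 genes of the mesothelial and smooth muscle lists were called from suckling to weaned. With median-ratio scaling 0 genes of the epithelial, squamous, chief cell, mesothelial and smooth muscle lists were called lower from suckling to weaned, so the lower calls of Cldn7, Krt15, Krt17, Pga5, Upk3b and Acta2 were made on the deposited scale and not on that one. The part of these cells in the keratin values was not tested, and leaving out D1 (Alb 460.5 FPKM) and W8 together, a choice made after these values were seen, kept Krt20 past the threshold from fetal to suckling (log2 difference 3.78, adjusted p = 0.000963) and took Krt18 below it (1.03, adjusted p = 0.0146).

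The genes most like each member were sought by the mean absolute difference of centred log2(FPKM + 1) profiles over the 15 time points, among the 12440 genes that reached 5 FPKM at some time point. For Krt8 these were Smim22 (0.116), Foxa3 (0.119) and B4galnt1 (0.135), with Krt19 at rank 19 (0.188) and Krt18 at rank 164 (0.334). For Krt18 they were Spint2 (0.0865), Tapbp (0.126) and Gstt3 (0.127), and Krt8 came at rank 720. For Krt19 they were Fxyd3 (0.159), Krt8 (0.188) and Elf3 (0.200). The profile of Krt7 was nearest to S100a11 (0.161), Cstb (0.274) and Ripk4 (0.276), with Krt8 at rank 11442. For Krt20 the nearest were AW112010 (0.314), Gjb1 (0.379) and 2210404O07Rik (0.384), at a larger distance than for the other members. Krt8 and Krt19 were thus nearer to each other over age than Krt8 was to its neighbour on the chromosome, Krt18.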

How the data were processed

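RNA was measured in whole stomachs at 15 time points, with 1 transcriptome each. The authors deposited 1 table per time point that holds the FPKM of each gene entry and its confidence limits, laid out as by Cufflinks with RefSeq-style identifiers. The study's methods name FastQC, HISAT2 and StringTie with a GENCODE annotation and liver tissue as the RNA source, whereas the labels name stomach and the submitters' processing notes name FastQC, Bowtie 0.12.2 and GRCm38.p2. The sources differ, so the tool behind the values is uncertain. Depth is not stated.

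Entries of a symbol were added up. Genes that reached 1 FPKM at any time point were tested on log2(FPKM + 1) in R 4.3.3 using limma 3.58.1, by a moderated F test and by contrasts of consecutive periods. P-values were adjusted by Benjamini-Hochberg across the 16902 tested genes, and the threshold was 0.01. Separate fits used values relative to Krt8 and relative to the mean of 20 general epithelial genes. Single genes were compared with exact two-sided permutation tests over all splits, computed in Python 3.11.15 with NumPy 2.4.6. Periods follow the age labels, because the study's RNA phases were drawn from these transcriptomes; its RNA phases and protein phases were alternatives. Labels do not name separate animals, so p-values measure the spread between time points. The script was tested on simulated data.

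The 5 genes and the gene lists were chosen with earlier results of these data known. Named were the 5 genes at every time point, the 2 highest and 2 lowest log2 differences among called genes of each list (of which some are printed), the 3 nearest profiles, and the 3 further keratins with the highest mean. The lists covered general epithelial genes, squamous keratins, desmosome and plakin genes, other intermediate filaments, epithelial transcription factors, surface mucous, parietal and chief cells, mesothelium, pancreas, intestine, liver and smooth muscle. Alternatives were pseudocounts of 0.1 and 0.01, FPKM limits of 0.5, 2 and none, 4 other scalings, the study's phases, a single entry per symbol, an intensity trend, other references, and leaving out each time point.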

Additional observations from a re-analysis of the deposited data

Results flagged for a closer look

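Of 28 groups of 4 to 10 time points examined for a value far from the others (Dixon's criterion, which chance meets in about 5% of groups), 3 met it. Krt7 per Krt8 was 0.133 at E18.5, below the other 6 fetal time points, with a gap to its nearest neighbour of 0.746 of the fetal range on the log2 scale, on which all gaps were taken. Krt20 per Krt8 was 0.0364 at D1, below the other 4 suckling time points, with a gap of 0.911 of the suckling range. Krt7 relative to the general epithelial genes was 2.12 on the log2 scale at D1, above the other 4 suckling time points, with a gap of 0.734 of the range. D1 is also the transcriptome with 460.5 FPKM of the liver gene Alb, and its part in the values of D1 was not tested.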

How the results depend on the processing

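Of 578 values of the 28 member comparisons under the alternatives, 538 kept their direction and their side of the threshold, 23 lost the call, 9 gained it and 8 changed sign. Most of the 28 comparisons were not called in the main fits, and for these a value that stayed uncalled counts as kept. The 23 lost calls were all from fetal to suckling, of Krt18 on the deposited scale and of Krt7 and Krt20 relative to Krt8. The calls of Krt20 on the deposited scale and relative to the epithelial genes were kept throughout. Where no cause is given here, the cause was not tested.

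Across the 3 periods, 2 of the 5 genes passed with a fixed sum per transcriptome, and 2 to 4 when each time point was left out in turn. From fetal to suckling 1 gene passed with a pseudocount of 0.01, with no FPKM filter (more genes were then tested) and without D1 and W8, 4 passed with the protein phases, and 1 to 3 passed when each time point was left out. Krt8 passed from fetal to suckling with the RNA phases (1.39) and the protein phases (1.60), and ranged from 0.94 to 1.39 without single time points. Krt18 missed the threshold with a pseudocount of 0.01 (0.99, adjusted p = 0.0102), with no filter (0.98, adjusted p = 0.0157) and without D1 and W8 (1.03), and ranged from 0.80 to 1.10 without single time points. Krt19 passed with the protein phases (1.52, adjusted p = 0.00359). Krt7 changed sign from fetal to suckling with median-ratio scaling (0.022) and the protein phases (0.21), and from suckling to weaned with median-ratio scaling (0.26) and without D1 and W8 (0.22), and ranged from -0.59 to 0.051 without single time points (0.051 without W8). Krt18 changed sign from suckling to weaned with a fixed sum (-0.19).

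Relative to Krt8, leaving out single time points gave -1.68 to -1.27 for Krt7 and 2.097 to 2.53 for Krt20 from fetal to suckling, and -0.54 to 0.0014 for Krt20 from suckling to weaned, where the sign turned without W8. Relative to the epithelial genes it gave 0.85 to 1.11 for Krt8 (past the threshold without E17.5 or E18.5) and 0.68 to 0.84 for Krt18 (past it without E12.5, E17.5 or E18.5) from fetal to suckling, and -0.36 to 0.21 for Krt7 from suckling to weaned.

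Over all genes, 2875 were called higher and 2535 lower in the suckling stomach with median-ratio scaling, against 1820 and 5170, and 3253 lower with a fixed sum without the 10 highest genes. Against 435 higher in the weaned stomach there were 2112 with median-ratio scaling, 1376 with quantile normalization, 191 with a fixed sum, 693 with the protein phases and 190 without D1 and W8, and 169 to 573 without single time points. Against 4877 lower there were 1305, 896 and 8114 with the first 3 of these, 3185 with a fixed sum without the 10 highest genes, 1898 without D1 and W8, and 1359 to 5660 without single time points.

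No paired analysis was possible because the labels give no replicate numbers and each time point is a single transcriptome. Without replicates at a time point, a difference between neighbouring time points has only the deposited bounds of single transcriptomes behind it.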
